A study of Mus musculus with 22 samples.

Results

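Haematopoietic stem cells (HSCs) of young mice that carried the leptin receptor (LEPR) on their surface were compared with HSCs of the same mice that did not. The comparison rests on 8 of the 22 libraries of the study, 4 labelled young LEPR+ and 4 labelled young LEPR-. The libraries were taken by these labels and paired by the mouse number, so that each of 4 mice gave 1 library of either kind. Mice 1 and 2 were male and mice 3 and 4 female. All were 2 to 3 months old, and the labels name no strain, genotype or treatment, and no number of sorted cells. The other 14 libraries came from 7 middle-aged mice of 12 to 15 months, sorted in the same way, and serve below as a separate set of animals. Marrow was flushed from leg bones and depleted of lineage-positive cells on magnets, and the sort took Lin-, Sca1+, Kit+, CD150+ and CD48- cells. Complementary DNA was amplified from very small amounts of poly(A) RNA. The design text of the series lists the young LEPR+ against LEPR- contrast as the first of its comparisons. Whether the labels' mice stand for separate litters or cages is not stated. An SD below is that between the animals of a group. The edgeR SEs and p-values rest on 1 estimate of the spread over all 22 libraries, those of the 7 middle-aged mice included.

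The leptin receptor is a cytokine receptor for leptin, the hormone that adipose tissue secretes, and its long form signals through the kinase JAK2 to STAT3 and STAT5. In marrow it is best known as a marker of the perivascular stromal cells that supply CXCL12 and stem cell factor to HSCs. HSCs are mostly out of cycle, have a low rate of protein synthesis, and include cells with a megakaryocyte and platelet bias that carry transcripts such as Vwf and Pf4. Stromal transcripts and platelet transcripts were followed here together with the metabolic and cell cycle genes. The lists were chosen with earlier results of these data known.

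The gene counts of the 8 libraries ran from 11.2 M (mega, the LEPR+ library of mouse 4) to 35.7 M, and between 12424 and 15406 genes had a count. A count of 0 allowed a level of up to 3 counts, or 0.0841 to 0.267 CPM (counts scaled to a library of 1000000) over these libraries, which covers counting error only. The libraries were uneven in the share of expressed genes that they failed to pick up. Of 4784 genes with a mean of 10 to 50 CPM over the study's 4 groups, 13.6%, 16.8%, 17.2% and 22.7% were under 0.5 CPM in the LEPR+ libraries of mice 1 to 4, and 27.3%, 36.7%, 31.8% and 23.95% in the LEPR- libraries. This drop-out share was 17.6% ± 3.74 (SD, n = 4) in LEPR+ and 29.9% ± 5.54 (n = 4) in LEPR- libraries, and the groups did not overlap. It was lower on the LEPR+ side in 4 of 4 mice, with an exact two-sided sign-flip permutation p of 0.13, the smallest that 4 pairs allow. Among the 3968 genes with a mean of 50 CPM or more over the 8 young libraries the share was 0.479%, 0.680%, 0.176% and 0.706% in LEPR+ and 2.24%, 4.16%, 1.46% and 0.630% in LEPR- libraries, lower in 3 of 4 mice (exact permutation p = 0.25). For this reason the account below leans on the latter class. Its border lay between Heatr6, at a mean of 49.98 CPM, and Ypel3, at 50.05 CPM. All levels are CPM scaled by the TMM method and are compared within a gene only.

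**Figure D1:**
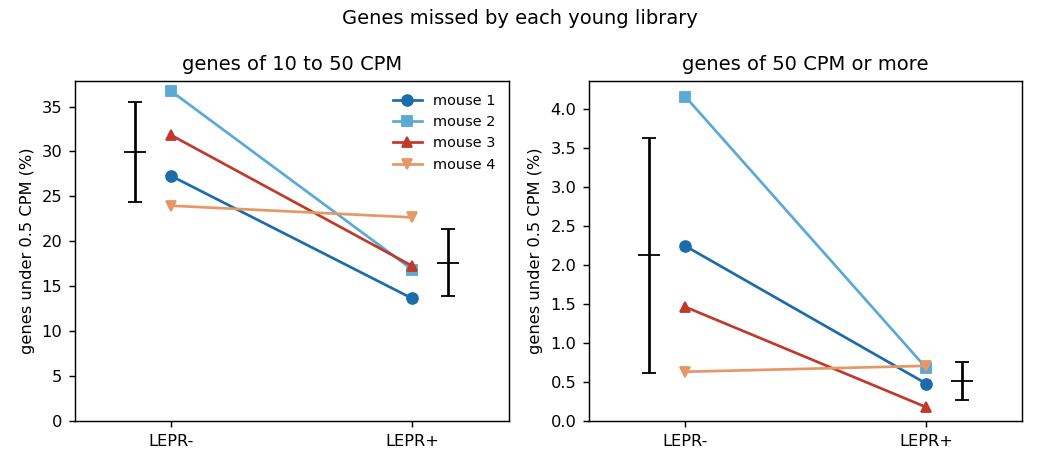
Share of genes under 0.5 CPM in each of the 8 young libraries (y axis, percent), for genes of 10 to 50 CPM and for genes of 50 CPM or more, with lines joining the LEPR- and LEPR+ library of a mouse. For genes of 10 to 50 CPM the 4 LEPR+ libraries lie between 13.6% and 22.7%, under the 4 LEPR- libraries at 23.95% to 36.7%.

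Very few genes differed between LEPR+ and LEPR- HSCs beyond the spread between mice, as estimated over all 22 libraries. In the edgeR quasi-likelihood test, with the mouse as a block, 25 of 17366 genes passed an adjusted p of 0.05, which is 0.144% of those tested. Of these, 24 rose in LEPR+ libraries (0.138%) and 1, Rrp1, fell (0.00576%). Rrp1 was also the only gene called among the 3968 of 50 CPM or more (0.0252%), where 0 genes rose and 1 fell. At an unadjusted p under 0.05 there were 1945 genes (11.2%), 1361 higher (7.84%) and 584 lower (3.36%). In the class of 50 CPM or more these were 407 (10.3%), of which 174 were higher (4.39%) and 233 lower (5.87%). The median log2 fold change, LEPR+ over LEPR-, was 0.05 over all tested genes and -0.03 in the class of 50 CPM or more.

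The count of calls depended on the tool. With the same block, DESeq2 called 2439 genes (1851 higher and 588 lower) and limma's voom 151 (101 higher and 50 lower). In the class of 50 CPM or more they called 292 (159 higher and 133 lower) and 47 (3 higher and 44 lower). In edgeR, leaving out 1 mouse gave between 22 and 82 calls over all genes, and between 0 and 9 in that class. A fit of the 8 young libraries alone, with the block, called 0 of 10824 genes.

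**Figure D2:**
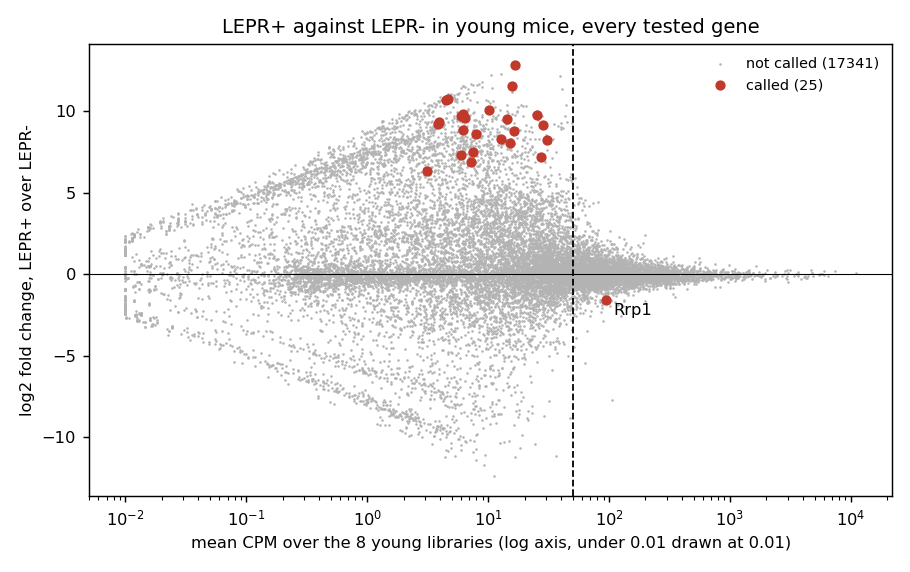
Log2 fold change of LEPR+ over LEPR- (y axis) against the mean CPM over the 8 young libraries (x axis, log scale) for the 17366 tested genes, with the 25 called genes marked. The 24 genes that rose all lie under 50 CPM and have large fitted changes, and Rrp1 is the only called gene to the right of that level.

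Of the 24 genes that rose, 3 had no count at all in the 4 LEPR- libraries and 11 had 3 counts or fewer there, and the drop-out share above was higher in those same libraries. With the drop-out share as a covariate in edgeR 0 genes were called (1696 at an unadjusted p under 0.05). In the young libraries this covariate did not overlap between LEPR+ and LEPR-, so that fit cannot fully tell the 2 apart. Among the 24 the rule for names picked D3Ertd751e, Pggt1b and Tmem214. D3Ertd751e, a gene whose exons overlap those of Sclt1, was at 46.0, 27.1, 34.8 and 18.7 CPM in the LEPR+ libraries of mice 1 to 4, and had 1 count in all 4 LEPR- libraries together. Pggt1b, the beta subunit of the enzyme that attaches geranylgeranyl lipids to small GTPases, was at 3.21, 6.02, 78.4 and 32.9 CPM in LEPR+ and at 0, 0, 1.51 and 0.0313 CPM in LEPR- libraries (fitted log2 change 8.03, SE 0.85, adjusted p = 0.00615). Tmem214, a membrane protein gene, was at 26.96, 49.1, 62.5 and 64.6 CPM in LEPR+ and at 0.245 CPM or less in LEPR- libraries (fitted log2 change 9.79, SE 1.16, adjusted p = 0.01). In all of these the 2 groups did not overlap. The LEPR- side was at or near the floor of detection, apart from Pggt1b in mouse 3, at 1.51 CPM.

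The same form held for Srebf1, which encodes the transcription factor SREBP-1, a regulator of fatty acid synthesis. It was at 1.60, 40.6, 46.0 and 25.2 CPM in LEPR+ libraries and at 0, 0, 0.0361 and 0.13 CPM in LEPR- libraries, with 5 counts on the LEPR- side (fitted log2 change 9.52, SE 1.17, adjusted p = 0.0112). Its exons overlap those of Rai1 and a miRNA gene, so part of its counts may belong to a neighbour. The other genes that rose included Gpx3, a secreted glutathione peroxidase, Acsl3, which activates long-chain fatty acids, Fancg, a Fanconi anaemia DNA repair gene, Prmt2, an arginine methyltransferase, and Apobec1, a cytidine deaminase that edits RNA. These 5 were chosen after their values were seen. Their adjusted p-values lay between 0.0327 and 0.0495, and each of them was within 33 counts in total in the LEPR- libraries.

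Rrp1, which encodes a nucleolar protein of ribosomal RNA processing (ENSMUSG00000061032.10, chromosome 10, 78236204 to 78248919, minus strand, GRCm39), was the 1 abundant gene to pass. It was at 86.7, 19.01, 47.3 and 47.2 CPM in the LEPR+ libraries of mice 1 to 4 and at 196, 117, 158 and 82.9 CPM in the LEPR- libraries. Each mouse had less on its LEPR+ side, although the highest LEPR+ value, of mouse 1, was above the lowest LEPR- value, of mouse 4. Rrp1 fell by 1.58 on the log2 scale (SE 0.26, adjusted p = 0.0495). The call sits at the threshold. In edgeR the adjusted p was 0.132 without the block, 0.0614 with RLE scaling and 0.388 with the drop-out share as a covariate. Without mouse 1, 2, 3 or 4 it was 0.0440, 0.0622, 0.101 and 0.0253. It was 0.128 in voom and 3.01e-06 in DESeq2. In a fit of the 8 young libraries alone Rrp1 did not pass, at a log2 change of -1.54 with the block.

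Other genes of nucleolar ribosome biogenesis were looked at because of Rrp1, so that list was put together after values were seen. Of its 46 members of 50 CPM or more, 1 was called, 6 were lower in 4 of 4 mice and 1 was higher in 4 of 4, with a median log2 fold change of -0.20. Over all genes of that level, 10.4% were lower in 4 of 4 mice and 5.95% higher, against 13.04% and 2.17% here. Nop56, a core protein of the box C/D small nucleolar particles that guide ribosomal RNA methylation, was at 164, 106, 307 and 338 CPM in LEPR+ and 318, 174, 518 and 448 CPM in LEPR- libraries (fitted log2 change -0.71, SE 0.15, adjusted p = 0.0992). Small nucleolar RNA genes lie within Nop56, and Idh3b overlaps it. Nol11, a factor of the small subunit processome, was at 36.1, 17.7, 116 and 46.0 CPM in LEPR+ and 96.3, 64.7, 206 and 159 CPM in LEPR- libraries (fitted log2 change -1.48, SE 0.31, adjusted p = 0.0992). Both were lower in each mouse and neither passed the test. The mature ribosomal protein genes were close to level: of 74, 0 were higher and 6 lower in 4 of 4 mice, with a median of -0.02.

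Genes of 50 CPM or more that differed in the same direction in every mouse were more often lower than higher on the LEPR+ side, 413 (10.4%) against 236 (5.95%). In 96 of the 3968 genes (2.42%) the 2 groups did not overlap, with 35 higher (0.882%) and 61 lower (1.54%). The 10 higher and the 10 lower genes of this kind with the smallest unadjusted p are described next. Among these 20, Rrp1 passed the test and the other 19 had adjusted p-values between 0.0531 and 0.163.

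On the higher side the first was H2-Aa, the alpha chain of the MHC class II molecule I-A (ENSMUSG00000036594.16, chromosome 17, 34493404 to 34506798, minus strand, GRCm39). It was at 213, 285, 266 and 176 CPM in LEPR+ libraries and at 91.6, 178, 84.4 and 61.2 CPM in LEPR- libraries. Only the LEPR- library of mouse 2 was as high as the lowest LEPR+ library, that of mouse 4 (fitted log2 change 1.27, SE 0.22, adjusted p = 0.0531). Its exons overlap those of H2-Eb1, so reads of the 2 genes may not be fully separated. The other class II chains and their invariant chain did not follow with the same regularity. H2-Eb1 was higher in 4 of 4 mice (fitted log2 change 2.36, SE 1.13, adjusted p = 0.461), and H2-Ab1 and Cd74 in 3 of 4. H2-DMa, a chain of the class II peptide loading factor H2-DM, was lower in 4 of 4 (fitted log2 change -0.41, SE 0.21, adjusted p = 0.502). The 5 class II genes of 50 CPM or more had a median of 0.58, with per-mouse medians of 0.73, -0.89, 0.83 and 0.84, so mouse 2 went the other way. Over all 10 members the median ran from -0.14 to 0.95 under the alternatives. B lineage genes would mark B cells as another source of class II transcripts. For 4 of 16 listed (Ms4a1, Vpreb1, Vpreb2 and Iglc1) no count was found in the 8 libraries, but 2 of these names were absent from the annotation and so not measured. Of the 4 members tested, 1 had a fold above 1 and 3 below. Their summed level ran from 90.8 to 167 CPM in LEPR+ and from 51.2 to 224 CPM in LEPR- libraries. It lay mostly in 1 gene, Cd79b, which was higher in 2 of 4 mice. Cd79a had no count in LEPR+ libraries and was at 0, 16.9, 0 and 11.8 CPM in the LEPR- libraries of mice 1 to 4. In these bulk libraries, fewer cells of a type and less RNA per cell cannot be told apart.

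Txnip, Slc2a3 and Prkag2 were also among the 10 higher genes. Txnip, an inhibitor of thioredoxin and of glucose uptake that is abundant in HSCs, was at 894, 589, 731 and 676 CPM in LEPR+ and 650, 339, 234 and 312 CPM in LEPR- libraries (fitted log2 change 1.00, SE 0.19, adjusted p = 0.0764). Slc2a3, the glucose transporter GLUT3, was at 267, 237, 396 and 573 CPM against 190, 88.1, 212 and 312 CPM (fitted log2 change 0.92, SE 0.17, adjusted p = 0.0667). Prkag2, a regulatory subunit of the energy sensor AMPK, was at 110, 135, 101 and 113 CPM against 33.3, 76.7, 38.7 and 39.5 CPM (fitted log2 change 1.36, SE 0.24, adjusted p = 0.0531). The groups did not overlap in Prkag2, while in Txnip and Slc2a3 single LEPR- libraries reached into the LEPR+ range. Glycolysis as a list was level, with 1 of 15 members of 50 CPM or more higher in 4 of 4 mice, 0 lower, and a median of 0.02. Slc2a3 was that member.

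Cd200r1, Kit and Tnip3 followed. Cd200r1, an inhibitory receptor for CD200, was at 78.1, 81.4, 118 and 73.3 CPM in LEPR+ libraries and at 33.8, 8.24, 13.9 and 3.75 CPM in LEPR- libraries (fitted log2 change 3.00, SE 0.59, adjusted p = 0.0806). Kit, the receptor for stem cell factor and one of the sort markers, was at 533, 345, 474 and 457 CPM against 417, 229, 231 and 357 CPM (fitted log2 change 0.58, SE 0.14, adjusted p = 0.161). Tnip3, an inhibitor of NF-kB signalling, was at 371, 322, 161 and 120 CPM against 140, 217, 34.1 and 14.9 CPM (fitted log2 change 1.80, SE 0.32, adjusted p = 0.0531). The groups did not overlap in Cd200r1 and did in Kit and Tnip3. Chp1, a calcineurin-like partner of sodium-proton exchangers, had groups that did not overlap, at 78.1 to 162 CPM against 37.5 to 55.3 CPM, and Rnf14, a ubiquitin ligase, and Tmt1a, a thiol methyltransferase, completed the 10.

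**Figure D3:**
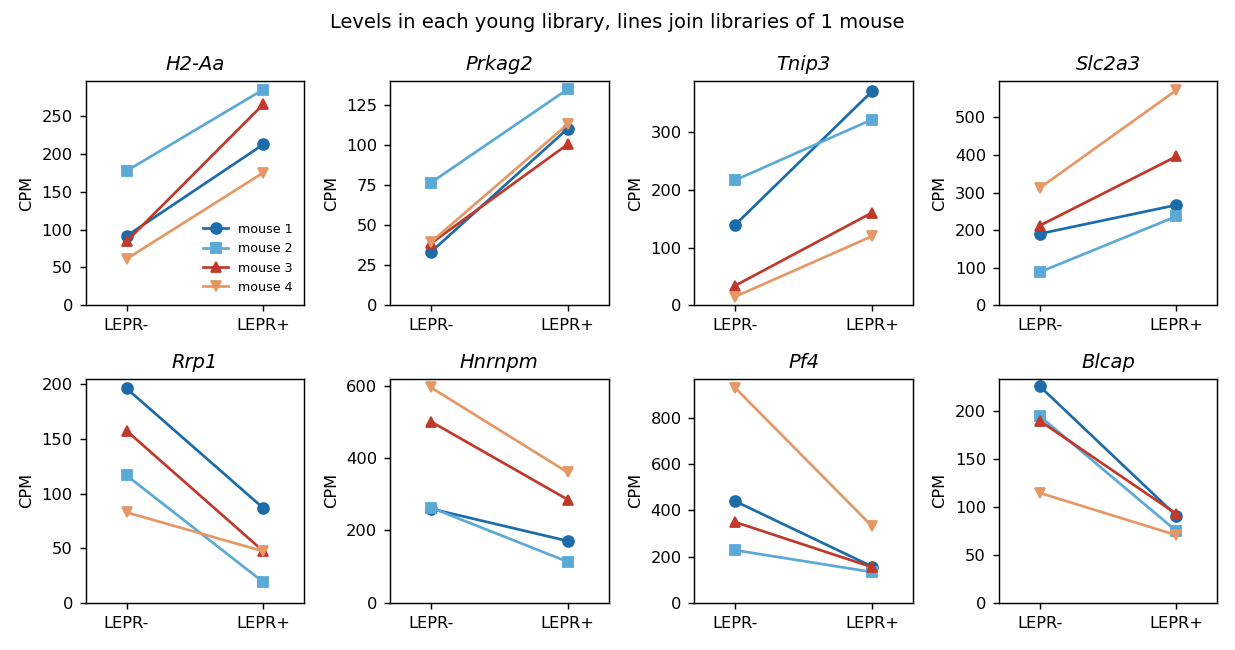
CPM (y axis, from 0) of 8 genes of 50 CPM or more, 4 higher and 4 lower in LEPR+, in each young library, with the LEPR- and LEPR+ library of a mouse joined by a line. In each gene shown the 4 lines slope the same way, and among them Rrp1 alone passed the test.

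The lower genes included Pf4, which encodes platelet factor 4, a chemokine of platelet granules (ENSMUSG00000029373.8, chromosome 5, 90918479 to 90922110, plus strand, GRCm39). It was at 157, 134, 155 and 332 CPM in the LEPR+ libraries and at 440, 228, 349 and 930 CPM in the LEPR- libraries. Mouse 4 was the highest of its group on both sides, and within each mouse the LEPR+ library was lower (fitted log2 change -1.23, SE 0.23, adjusted p = 0.0667). The middle-aged mice gave a separate measurement of the same contrast. There Pf4 averaged 77.5 ± 31.7 CPM (SD, n = 7) on the LEPR+ side and 229.7 ± 119 CPM (n = 7) on the other, lower in 7 of 7 mice, and it was the 1 gene of 17366 called in that contrast (0.00576%; log2 fold change -1.47, SE 0.17, adjusted p = 0.0396 in edgeR). The difference between the 2 ages was -0.24 (SE 0.28, adjusted p = 0.927).

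Pf4 belongs to the megakaryocyte and platelet list, of which 15 members reached 50 CPM. Of these 7 were lower in 4 of 4 mice, 0 were higher in 4 of 4, and 0 were called (4 lower and 0 higher at an unadjusted p under 0.05). The share lower in every mouse was 46.7%, beside 10.4% of all genes of that level. The median log2 fold change was -0.52, with per-mouse medians of -0.52, -0.39, -0.59 and -0.57 in mice 1 to 4, and it was -0.23 in the middle-aged mice. Over all 29 tested members the median was -0.24, with 13 folds above 1 and 16 below, and of the 14 members under 50 CPM 10 were above 1. The 7 were Pf4, Rap1b, Gp5, Cd9, Lat, Vwf and Gata1. Of the 15 members, 3 had a fold above 1 and 12 below. The most abundant member, Rgs18, was at 1543, 1612, 845 and 1240 CPM in LEPR+ and 1500, 1271, 812 and 1357 CPM in LEPR- libraries. It was higher in 3 of 4 mice (fitted log2 change 0.08, SE 0.23). Rap1b, a small GTPase of platelet integrin activation, was at 106, 95.7, 138 and 284 CPM in LEPR+ and 109, 414, 315 and 1320 CPM in LEPR- libraries (fitted log2 change -1.40, SE 0.37), and Gp5, a subunit of the platelet von Willebrand factor receptor, at 27.2, 48.3, 214 and 96.7 CPM against 71.9, 76.6, 299 and 247 CPM (fitted log2 change -0.98, SE 0.36). In both the 2 groups overlapped although each mouse had the same direction. Vwf itself, at 50.9, 0.115, 39.3 and 34.5 CPM against 116, 49.4, 76.1 and 35.9 CPM, differed little in mouse 4 and was near the floor in the LEPR+ library of mouse 2 (fitted log2 change -1.73, SE 1.05). The list's summed level was 3113 to 3752 CPM in LEPR+ and 3803 to 6437 CPM in LEPR- libraries. These ranges did not overlap, but with Rap1b left out of the sums they do. In mouse 2 the sums were 3487 CPM in LEPR+ and 3803 CPM in LEPR-, and Rap1b, at 95.7 and 414 CPM, made up that gap.

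Windows of the 250 bases before the annotated start are shown for the 1 called gene of 50 CPM or more, for H2-Aa, which had the smallest p among the higher genes of that level, and for Pf4, which was called in the middle-aged mice, from the RefSeq promoter table, on build GRCm38.p6. Capitals mark CCAAT or its reverse complement ATTGG, the sequence that the factor NF-Y reads. The windows are chr10:78413044-78413293 (minus strand) for Rrp1, chr17:34287824-34288073 (minus strand) for H2-Aa and chr5:90772185-90772434 (plus strand) for Pf4.
Rrp1: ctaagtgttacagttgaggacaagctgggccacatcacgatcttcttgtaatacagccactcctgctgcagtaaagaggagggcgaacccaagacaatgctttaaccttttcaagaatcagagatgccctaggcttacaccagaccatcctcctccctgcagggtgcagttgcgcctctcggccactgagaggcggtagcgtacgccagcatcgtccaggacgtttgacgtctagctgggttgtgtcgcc
H2-Aa: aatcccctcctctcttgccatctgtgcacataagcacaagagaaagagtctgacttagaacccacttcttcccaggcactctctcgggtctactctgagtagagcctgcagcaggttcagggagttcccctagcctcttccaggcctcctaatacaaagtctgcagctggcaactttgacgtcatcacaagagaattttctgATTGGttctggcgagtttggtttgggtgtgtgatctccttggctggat
Pf4: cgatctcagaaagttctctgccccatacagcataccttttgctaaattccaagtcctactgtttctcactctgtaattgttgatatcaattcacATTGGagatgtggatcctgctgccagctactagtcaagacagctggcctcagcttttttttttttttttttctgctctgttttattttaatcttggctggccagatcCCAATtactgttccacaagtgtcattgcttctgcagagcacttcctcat

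H2-Aa held 1 such match, Pf4 held 2, and Rrp1 held none of the 4 motifs searched. Over all 32851 windows of this length in the table, 33.8% held CCAAT on either strand. The form of a STAT site, TTCNNNGAA, was in 7.02%. The E-box CACGTG was in 6.02%, and the GATA form, written AGATAA, was in 9.99%. These are shares of windows, while the named genes below are counted by gene, and a gene can have several windows. By gene, CCAAT was found for 10133 of 27025, the STAT form for 2197, the E-box for 1854 and the GATA form for 3090. Of the 10 higher genes 6 were in the table, and CCAAT was found for 5 of them, namely Chp1, H2-Aa, Prkag2, Tnip3 and Txnip, while none of their windows held the other motifs. Of the 10 lower genes all were in the table, and CCAAT was found for Cebpg, Nkg7, Nop56 and Pf4. The STAT form was found before Blcap and Nkg7, and the E-box and GATA forms before Nol11. These are matches of letters and nothing was measured at them.

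The remaining lower genes included Hnrnpm, Srrm2, Cebpg and Nkg7. Hnrnpm, a splicing regulator, was at 171, 114, 285 and 361 CPM in LEPR+ and 260, 263, 501 and 595 CPM in LEPR- libraries (fitted log2 change -0.84, SE 0.15, adjusted p = 0.0635). Srrm2, a scaffold of nuclear speckles, was at 21.0, 38.4, 2.45 and 55.6 CPM against 96.0, 119, 35.4 and 89.3 CPM (fitted log2 change -2.06, SE 0.42, adjusted p = 0.0928), with several genes overlapping its exons. Cebpg, a partner of ATF4 in the amino acid stress response, was at 8.43, 45.5, 67.0 and 30.2 CPM against 72.4, 144, 117 and 153 CPM (fitted log2 change -1.98, SE 0.44, adjusted p = 0.131). The groups did not overlap in Cebpg, Blcap and Tmem123, and overlapped in Hnrnpm and Srrm2. Nkg7, a granule membrane gene of cytotoxic lymphocytes, was at 73.5, 22.5, 111 and 74.0 CPM against 204, 100, 249 and 237 CPM (fitted log2 change -1.62, SE 0.33, adjusted p = 0.0966) and had a log2 fold change of -0.82 in middle-aged mice. Of the 17 T and NK cell markers, 12 had no count in any of the 8 young libraries, among them Trac, Gzma, Gzmb, Prf1 and Ncr1. Lck, a kinase of T cell receptor signalling, was counted in all 8, at 22.4 to 58.7 CPM in LEPR+ and 16.8 to 68.9 CPM in LEPR- libraries, higher in 2 of 4 mice.

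Nuclear genes of oxidative phosphorylation and proteasome genes leaned low on the LEPR+ side by small amounts. Of the 71 genes of the former at 50 CPM or more, 21 were lower in 4 of 4 mice and 1 was higher in 4 of 4 (29.6% and 1.41%, beside 10.4% and 5.95% of all genes of that level), with a median log2 fold change of -0.25 and 0 called. At an unadjusted p under 0.05, 11 were lower and 1 higher. The summed level of the list was 20557, 22809, 26669 and 23625 CPM in the LEPR+ libraries of mice 1 to 4 and 24738, 24073, 32967 and 27612 CPM in their LEPR- libraries, so each mouse had less on the LEPR+ side. Cyc1, the cytochrome c1 of complex III, was at 223, 120, 351 and 257 CPM against 299.9, 316, 528 and 476 CPM (fitted log2 change -0.82, SE 0.20), and Ndufs8, a subunit of complex I, at 301, 298, 391.9 and 324 CPM against 483, 382, 485 and 512 CPM (fitted log2 change -0.50, SE 0.13). Of the 71 genes, 12 had a fold above 1 and 59 below. The 1 gene higher in 4 of 4 mice was Ndufs1, a core subunit of complex I, at 84.5, 113, 160 and 249 CPM against 37.7, 43.1, 140 and 131 CPM (fitted log2 change 0.92, SE 0.41). The 7 genes of the mitochondrial genome at this level did not share the direction: 2 of them, mt-Nd5 and mt-Co1, were higher in 4 of 4 mice, 0 were lower, and the median was 0.19. In middle-aged mice the median of the 71 genes was -0.06.

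The proteasome list behaved alike in size. Of its 31 members, all of 50 CPM or more, 10 were lower in 4 of 4 mice and 0 higher (32.3% beside 10.4% of all genes), with a median of -0.24 and per-mouse medians of -0.15, -0.07, -0.37 and -0.31. Psmd7, a lid subunit of the regulatory particle, was at 246, 325, 233 and 234 CPM in LEPR+ and 309, 435, 302 and 363 CPM in LEPR- libraries (fitted log2 change -0.44, SE 0.13), and Psmb6, a catalytic core subunit, at 709, 787, 857 and 838 CPM against 885, 1126, 1227 and 1199.6 CPM (fitted log2 change -0.47, SE 0.15). In Psmb6 the groups did not overlap. In edgeR 0 were called (6 lower and 0 higher at an unadjusted p under 0.05), and the median in middle-aged mice was 0.00. Chaperones had 5 of 26 lower (19.2%) and 1 higher in 4 of 4 mice, translation factors 6 of 31 lower (19.4%) and 1 higher, and splicing factors 6 of 34 lower (17.6%) and 1 higher, with medians of -0.15, -0.16 and -0.12. Pdia4, a disulphide isomerase of the endoplasmic reticulum, was the chaperone with the smallest p, at 71.8, 26.4, 42.2 and 74.4 CPM against 110, 79.2, 128 and 220 CPM (fitted log2 change -1.35, SE 0.30). In genes of 50 CPM or more the drop-out share was lower on the LEPR+ side in 3 of 4 mice, and its part in these list values was not tested.

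**Figure D4:**
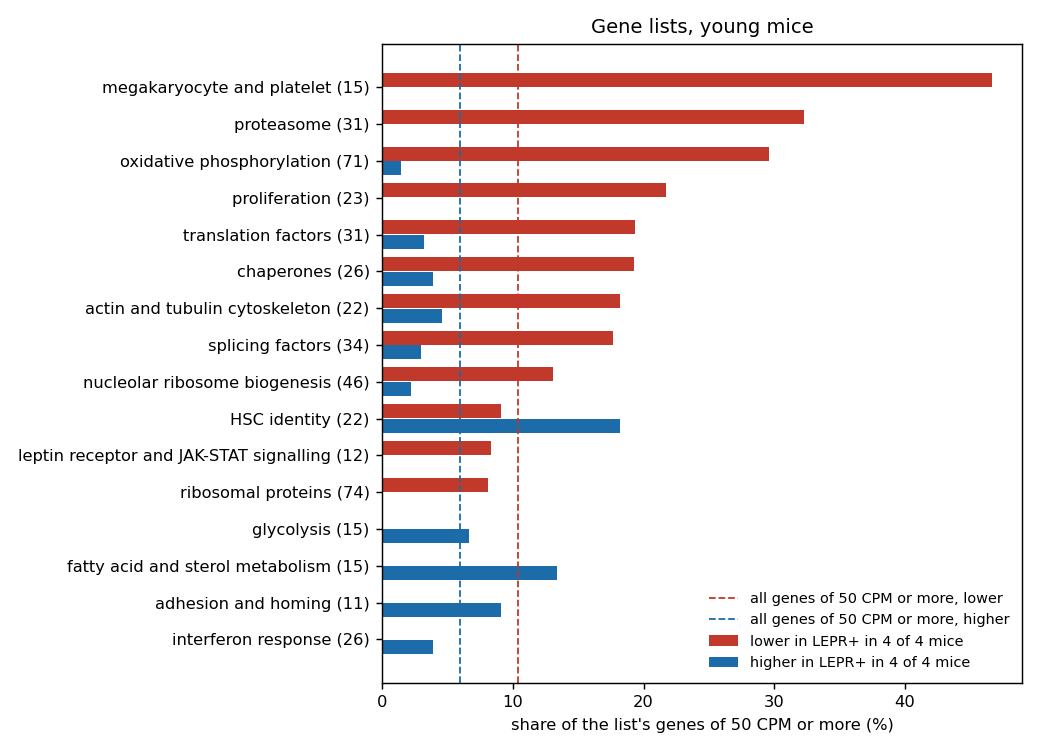
Percent of members of 50 CPM or more that were higher or lower in LEPR+ in 4 of 4 mice (x axis), for each list with 10 or more such members, beside all 3968 genes. The megakaryocyte and platelet, proteasome and oxidative phosphorylation lists show 46.7%, 32.3% and 29.6% lower in every mouse, beside 10.4% of all genes.

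The cell cycle gave 0 calls in edgeR. Of 23 proliferation genes of 50 CPM or more, 5 were lower in 4 of 4 mice and 0 higher (21.7% and 0%, beside 10.4% and 5.95% of all genes of that level). Their median was -0.11, and 4 were lower at an unadjusted p under 0.05. Mcm2, part of the replicative helicase, was at 16.6, 48.1, 257 and 80.7 CPM in LEPR+ and 141, 66.5, 366 and 132 CPM in LEPR- libraries (fitted log2 change -1.13, SE 0.42). Pcna, the sliding clamp of DNA polymerase, was at 179, 236, 286 and 370 CPM against 339, 287, 349 and 475 CPM (fitted log2 change -0.46, SE 0.20). The 2 groups overlapped in both, and over all 36 tested members the median was 0.26, of the opposite sign. In middle-aged mice the 23 genes had a median of -0.35.

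HSC identity genes were mixed in direction. Of 22 members of 50 CPM or more, 4 were higher in 4 of 4 mice (Txnip, Kit, Ly6a and Procr) and 2 lower (Gfi1b and Lmo2), with a median of 0.17. These are 18.2% and 9.09% of the members, beside 5.95% and 10.4% of all genes of that level. The per-mouse medians were -0.24, 0.20, 0.29 and 0.33, so mouse 1 went the other way. Ly6a, which encodes the sort marker Sca1, was at 234, 268, 57.9 and 206 CPM against 174, 123, 23.7 and 114 CPM (fitted log2 change 0.92, SE 0.30, adjusted p = 0.263). Gfi1b, a repressor that acts in the erythroid and megakaryocyte lineages, was at 48.0, 27.9, 169 and 132 CPM against 103, 206, 281 and 181 CPM (fitted log2 change -1.26, SE 0.34, adjusted p = 0.198). Mouse 3 was the lowest for Ly6a and the highest for Gfi1b on both sides.

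Further lists are given by their members of 1 direction in 4 of 4 mice. Of all genes of 50 CPM or more, 5.95% were higher and 10.4% lower in this way. Of 26 interferon response genes of 50 CPM or more, 1 was higher (3.85%) and 0 lower in 4 of 4 mice, with a median log2 change of 0.03. Of 15 genes of fatty acid and sterol metabolism at that level, 2 were higher (13.3%) and 0 lower, with a median of 0.43. These were Srebf2, the regulator of cholesterol synthesis, at 170, 73.1, 104 and 128 CPM in LEPR+ and 125, 57.5, 29.4 and 62.5 CPM in LEPR- libraries (fitted log2 change 0.91, SE 0.35, adjusted p = 0.363), and Plin2, a coat protein of lipid droplets (fitted log2 change 0.73, SE 0.39, adjusted p = 0.523). Of 11 adhesion and homing genes, 1 (9.09%), the tetraspanin gene Cd82, was higher in 4 of 4 mice and 0 were lower, with a median of 0.12. Of 22 actin and tubulin genes, 1 was higher (4.55%) and 4 were lower (18.2%), with a median of -0.02.

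The transcript of the receptor itself could not be followed. Lepr had 1 count in the 4 LEPR+ libraries together (mouse 2) and 1 in the 4 LEPR- libraries (mouse 4), both under the floor, so no fold can be given and the transcript does not check the labels. Of the 12 leptin receptor and JAK-STAT genes of 50 CPM or more, 0 were higher and 1, Bcl2l1, was lower in 4 of 4 mice, with a median of 0.03. Stat3, the main transducer of the long receptor, was at 177, 124, 92.3 and 214 CPM in LEPR+ and 35.7, 31.7, 136 and 145 CPM in LEPR- libraries, higher in 3 of 4 mice (fitted log2 change 1.08, SE 0.39, adjusted p = 0.313). Bcl2l1, which encodes the survival protein BCL-XL, was at 92.3, 108, 114 and 66.7 CPM against 148, 109, 299 and 132 CPM (fitted log2 change -0.77, SE 0.31, adjusted p = 0.384).

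Markers of other marrow cells were checked in the same libraries. Of 20 stromal markers, 6 had no count in any of the 8 libraries (Col1a1, Grem1, Nes, Bglap, Dcn and Lum) and none reached a mean of 50 CPM. The summed stromal level was 23.1 to 374 CPM in LEPR+ and 26.9 to 125 CPM in LEPR- libraries. Cxcl12 was at 8.93, 0.0864, 0 and 216 CPM in LEPR+ and 0, 0, 17.2 and 0.0625 CPM in LEPR- libraries (adjusted p = 0.583). Kitl, the gene of stem cell factor, was at 0.818, 0, 0 and 20.5 CPM in LEPR+ libraries and had no count in LEPR- libraries (adjusted p = 0.338). The counts of Cxcl12 and Kitl thus lay mainly in the LEPR+ library of mouse 4. Runx2 was at 18.4, 99.0, 8.57 and 2.10 CPM in LEPR+ and 78.9, 3.73, 0.0361 and 11.0 CPM in LEPR- libraries, higher in 2 of 4 mice. Of the 8 stromal markers tested, 7 had a fold above 1, and of 12 endothelial markers 9 did, with 0 called in either list. The summed endothelial level was 277 to 716 CPM in LEPR+ and 177 to 430 CPM in LEPR- libraries. Sparc, a matrix protein that is also made by other cells, was at 62.1, 54.2, 5.97 and 62.7 CPM in LEPR+ and 0, 23.1, 0.108 and 0.0938 CPM in LEPR- libraries (adjusted p = 0.375). Of the 13 tested neutrophil lineage genes, 3 had a fold above 1 and 10 below, and 0 were called. Mpo, myeloperoxidase, was at 99.6, 55.7, 0.0361 and 99.5 CPM there and at 0.629 CPM or less in the LEPR+ libraries (adjusted p = 0.181), and S100a8, a calprotectin subunit, was at 3.48, 476, 5.19 and 358 CPM against 5.24 CPM or less (adjusted p = 0.203). Prtn3, proteinase 3, was higher on the LEPR+ side in 4 of 4 mice, at 422, 399, 269 and 418 CPM against 420.1, 293, 268 and 204 CPM (fitted log2 change 0.37, SE 0.17, adjusted p = 0.455), and Lyz2, a lysozyme gene, was higher in 2 of 4. The summed neutrophil level was 669 to 1017 CPM in LEPR+ and 662 to 1585 CPM in LEPR- libraries. Rhd and Epb42, genes of the red cell membrane, had no count in LEPR+ libraries and reached 36.9 and 37.4 CPM in LEPR- libraries. Of the 21 tested erythroid genes, 8 had a fold above 1 and 13 below. Of the 8 at 50 CPM or more, 0 were higher and 0 lower in 4 of 4 mice, and Car2, a carbonic anhydrase gene, and Nfe2, a transcription factor gene, were each higher in 2 of 4. The summed erythroid level was 4049 to 6513 CPM in LEPR+ and 3802 to 7088 CPM in LEPR- libraries. The part of these markers in the results above was not tested.

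The direction seen in young mice was then read in the middle-aged mice, which share no animal with them. Of the 10 named higher genes 10 were also higher there, with a median log2 fold change of 0.18 beside 1.32 in the young, and of the 10 named lower genes 8 were lower, with -0.09 beside -1.35. Of the 236 genes higher in every young mouse, 57.6% were higher in the middle-aged mice, and of the 413 lower in every young mouse 62.0% were lower. Over all 3968 genes 48.7% were higher and 51.3% lower. Apart from Pf4, none of the named genes was called in the middle-aged contrast.

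**Figure D5:**
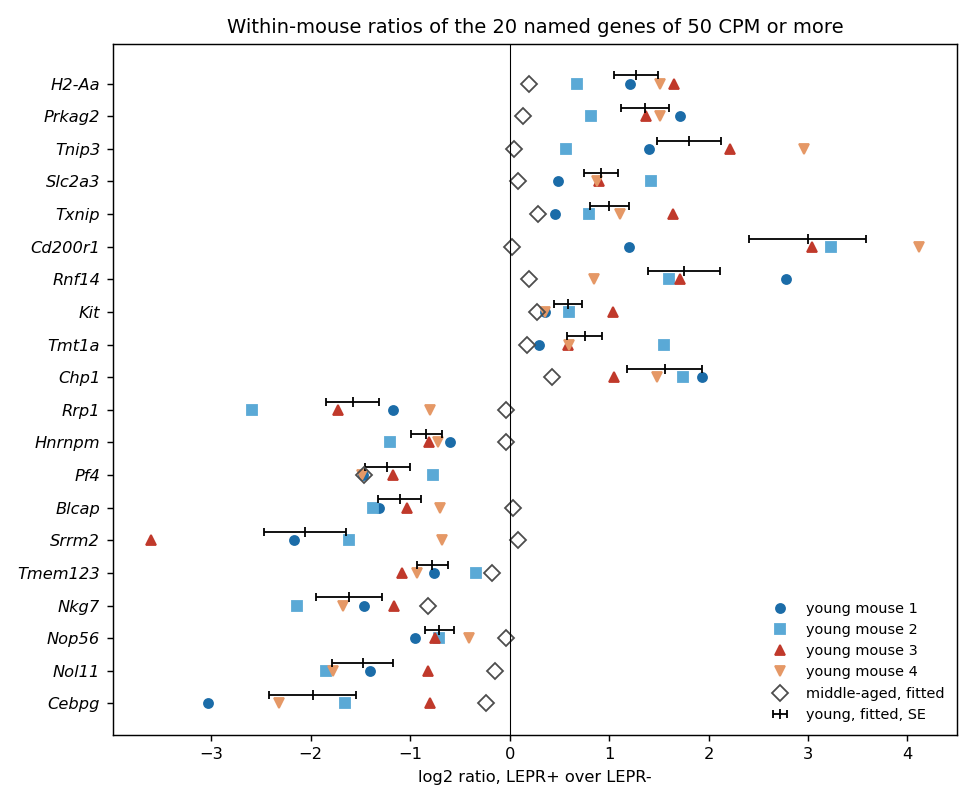
Log2 ratio of LEPR+ to LEPR- (x axis) in each of the 4 young mice for the 20 named genes of 50 CPM or more (coloured points), with the fitted young value and its SE (black) and the fitted middle-aged value (open diamonds). The young ratios of each gene lie on 1 side of 0, and the middle-aged values lie nearer to 0 than the young fitted value for each gene but Pf4, at -1.47.

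Whether the LEPR+ to LEPR- change was of another size in middle-aged mice was tested in the same fit. Such a difference was called for 7 of 17366 genes (0.0403%), all of them genes that rose in young LEPR+ libraries and had a smaller effect in middle-aged mice, namely D3Ertd751e, Pggt1b, Plcb2, Tmem214, Srebf1, Nrg4 and Stxbp4. DESeq2 called 1530 genes in this contrast and voom 43. Among the genes of 50 CPM or more edgeR called 0, and 225 (5.67%) had an unadjusted p under 0.05. The 3 with the smallest p were Krt18, Rrp1 and Tnip3. Krt18, a keratin of simple epithelia, was at 304, 226, 197 and 150 CPM in young LEPR+ and 411, 317, 214 and 188 CPM in young LEPR- libraries, and middle-aged mice averaged 447 ± 48.1 CPM (SD, n = 7) on the LEPR+ side and 321 ± 32.1 CPM (n = 7) on the other. The log2 difference of the effects, middle-aged minus young, was 0.82 (SE 0.17, adjusted p = 0.157 in edgeR). For Rrp1 it was 1.54 (SE 0.32, adjusted p = 0.167), as its middle-aged levels were 271 ± 99.3 CPM and 271 ± 86.0 CPM. For Tnip3 it was -1.76 (SE 0.39, adjusted p = 0.201).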

How the data were processed

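Each of the 22 deposited files gives unnormalized read counts by gene for 1 library, and the 8 young libraries are the subject here. The submitters' processing notes name FastQC, cutadapt, STAR, HTSeq and DESeq2 and the build GRCm39 (mm39). Versions, annotation release and strand setting are not given in the sources used here, so overlapping genes may share or lose reads. The closing summary lines of each file, 29.7% to 39.5% of the records of a young library, stayed out of library sizes and tests. Of 55416 gene identifiers, 54749 were matched to GENCODE vM39 for names and positions, and the others held 0.0454% of the counts. The kit, per the labels, amplifies complementary DNA, and reads from PCR are not independent molecules.

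Counts were fitted in edgeR 4.0.16 (R 4.3.3, quasi-likelihood test) over all 22 libraries, with the mouse (11 levels) as a block and 1 LEPR coefficient per age, after TMM scaling and filterByExpr (minimum count 10, minimum total 15). The common dispersion was 1.14. P-values were adjusted by Benjamini-Hochberg over 17366 genes and called under 0.05. Per-mouse log2 ratios used CPM plus 0.5. The alternatives used limma 3.58.1, DESeq2 1.42.0, other scalings, filters and covariates. The code was tested on simulated data. Pairing rests on the mouse numbers in the labels. Over genes of 50 CPM or more, deviations from the group means correlated at 0.199, 0.163, 0.312 and 0.230 between libraries of 1 mouse, and at -0.188 to 0.0774 between those of different mice.

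The comparison, the gene lists and the tests were chosen with earlier results of these data known. The rule named Lepr; the 10 higher and 10 lower genes of 50 CPM or more with 1 direction in 4 mice and the smallest p; up to 3 called genes per direction under 50 CPM; in each list the 2 highest members, up to 2 more of the smallest p under 0.05 and any called member; and the 3 genes of 50 CPM or more with the smallest p for the difference between ages. Other list members named in the text were chosen after their values were seen.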

Additional observations from a re-analysis of the deposited data

Results flagged for a closer look

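In 7 of the 50 sets of 4 libraries checked, 1 library lay far from the other 3, where chance alone sets apart about 1 in 20. Prkag2 was at 76.7 CPM in the LEPR- library of mouse 2, the other 3 LEPR- libraries lying between 33.3 and 39.5 CPM. Rnf14 was at 113 CPM in the LEPR- library of mouse 4, beside 16.1 to 26.7 CPM in the others. Pf4 was at 332 CPM in the LEPR+ library of mouse 4, the shallowest of the 8, beside 134 to 157 CPM. Pggt1b was at 1.51 CPM in the LEPR- library of mouse 3, D3Ertd751e at 0.0322 CPM in that of mouse 1, and Lepr at 0.0288 CPM in the LEPR+ library of mouse 2 and 0.0313 CPM in the LEPR- library of mouse 4. For the last 2 genes these are single counts, with the other 3 libraries of the set at 0. Any count stands apart in such a set, so the rate above does not apply to them.

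The LEPR effect differed between ages by the test of that difference in 7 genes under 50 CPM. As log2 values, middle-aged minus young, the differences were -11.21 for D3Ertd751e, -8.42 for Pggt1b, -9.06 for Plcb2, -9.63 for Tmem214, -9.68 for Srebf1, -10.42 for Nrg4 and -7.47 for Stxbp4. Most young LEPR- libraries were at or near the floor of detection for these genes. On that side Stxbp4 was above it at 2.97 CPM in mouse 1 and 0.325 CPM in mouse 3, and Pggt1b at 1.51 CPM in mouse 3. The sizes thus depend on the fit's handling of counts near 0 and are no measured folds.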

How the results depend on the processing

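Counts of called genes, in the order all genes, genes of 50 CPM or more, and difference between ages, were 25, 1 and 7. Without the replicate block they were 104 (97 higher and 7 lower, 19 of them among the 25), 2 and 41. They were 13 and 0 for the first 2 with upper-quartile scaling, 11 and 0 without a filter, 2439, 292 and 1530 in DESeq2, 151, 47 and 43 in voom, 6, 0 and 3 with library size as a covariate, and 0, 0 and 0 with the drop-out share as a covariate (1696, 329 and 1263 at an unadjusted p under 0.05). RLE scaling gave 0 in the class of 50 CPM or more (423 at an unadjusted p under 0.05). A fit of the 8 young libraries alone gave 0 and 0 with the block (389 and 174) and 0 and 0 without it (258 and 101), and fitting only genes of 50 CPM or more gave 0 (451), or 0 (169) with the 8 young libraries, an alternative chosen after seeing the data. A class border of 20 CPM gave 5 and of 100 CPM gave 0 (282). Leaving out mouse 1, 2, 3 or 4 gave 82, 45, 22 and 71 calls over all genes, 9, 5, 0 and 4 in the class of 50 CPM or more, and 47, 17, 11 and 35 for the difference between ages. Without mouse 1, 11 genes fell. The cause was not tested in any of these cases. The drop-out share did not overlap between young LEPR+ and LEPR- libraries, so the fit with this covariate cannot fully tell it apart from LEPR. The drop-out difference of -12.3 points had an exact permutation p of 0.0286 without the pairing, and ranged from -16.0 to -9.82 points over fits without 1 mouse. Of 1990 values of 130 named genes under the alternatives, 1874 stayed on their side of the threshold, 91 passed it, 56 of them in DESeq2, 25 of called genes no longer did, and 0 called genes changed sign. Of 125 named genes that were not called, 33 had the other sign under some alternative. Over the alternatives the median fitted log2 change over tested members ran from -0.25 to -0.19 for oxidative phosphorylation, -0.34 to -0.20 for the proteasome and -0.91 to -0.19 for the megakaryocyte and platelet list. Depth limits genes near the floor of 3 counts, which 11 of the 25 called genes did not pass in the LEPR- libraries together.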
